A study of Mus musculus with 22 samples.

Results

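The junctions described here are the immunoglobulin heavy chain (Igh) joins in which neither the V to D nor the D to J boundary carried a non-templated (N) nucleotide. They were taken from the 22 Igh libraries of kidney B cells as every sequence with an assigned D segment, a start position for it, and empty N regions on both sides. This rule gave 3743 of the 16785 sequences with a D segment (22.3%) and of 17178 sequences in all; the 393 sequences without a D segment (2.29%) were left out. A clonotype was defined as 1 junction nucleotide sequence with 1 V and 1 J segment, and 539 of the 6575 clonotypes counted per library (8.20%) were N-less, which are 453 distinct clonotypes. Junctions that differ by 1 nt therefore count apart. Merging each into a junction 1 nt away with at least 2 times its sequences in the same library left 409 N-less of 5416 (7.55%). All mice were wild-type female C57BL/6 animals, 8 to 10 weeks old, whose bladders received UPEC (uropathogenic Escherichia coli, 5 mice) or PBS (6 mice) on 2 occasions. The kidneys were taken 56 days later. From each mouse the B cells were sorted into an intravascular fraction, labelled by an anti-CD45 antibody given into the blood shortly before death, and an unlabelled extravascular fraction.

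N nucleotides are added to the open ends of V, D and J segments by terminal deoxynucleotidyl transferase, which is low or absent in fetal lymphocyte development and active in adult bone marrow. Joins without them are therefore common among B cells made before birth, including many peritoneal B-1a cells, and often form where the 2 segment ends share a few bases. IGHV11-2 and IGHV12-3 are V segments used by B-1a cells that bind phosphatidylcholine. Adult B cells also make some N-less joins, and an N-less junction alone does not date a cell. The files hold Igh sequences only, so the sorted cell type could not be checked against other marker genes.

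The N-less junctions found in at least 3 mice are printed first because they carry the sharing described further on. Each runs 5′ to 3′ from the conserved cysteine codon to the conserved tryptophan codon, with the stretch annotated as the D segment in capitals and V and J bases in lower case:
IGHV11-2, IGHD2-5 and IGHJ1, 11 mice: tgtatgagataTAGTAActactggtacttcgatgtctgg
IGHV11-2, IGHD2-1 and IGHJ1, 10 mice: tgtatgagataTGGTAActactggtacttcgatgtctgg
IGHV11-2, IGHD1-1 and IGHJ1, 8 mice: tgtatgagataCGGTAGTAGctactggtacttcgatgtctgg
IGHV12-3, IGHD2-3 and IGHJ1, 6 mice: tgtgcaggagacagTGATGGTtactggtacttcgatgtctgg
IGHV11-2, IGHD1-1 and IGHJ1, 5 mice: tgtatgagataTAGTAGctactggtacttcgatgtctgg
IGHV5-6, IGHD1-1 and IGHJ2, 4 mice: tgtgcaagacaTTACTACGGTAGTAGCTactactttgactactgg
IGHV12-3, IGHD2-3 and IGHJ1, 3 mice: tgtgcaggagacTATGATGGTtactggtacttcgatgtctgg
IGHV11-2, IGHD2-3 and IGHJ1, 3 mice: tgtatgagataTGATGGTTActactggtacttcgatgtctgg

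The N-less clonotypes with the most sequences in a group are shown next in the same way, as the largest single members behind the shares of sequences. Each of these 3 was found in 1 mouse; in the intravascular UPEC group the largest was the IGHV11-2, IGHD2-1 and IGHJ1 junction printed above (41 sequences in mouse 4):
IGHV3-3, IGHD2-5 and IGHJ2, 431 extravascular sequences of PBS mouse 1: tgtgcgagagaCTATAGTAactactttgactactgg
IGHV12-3, IGHD2-3 and IGHJ3, 196 extravascular sequences of UPEC mouse 2: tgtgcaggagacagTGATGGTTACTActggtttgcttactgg
IGHV3-1, IGHD6-2 and IGHJ1, 19 intravascular sequences of PBS mouse 3: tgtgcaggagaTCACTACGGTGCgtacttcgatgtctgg

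The germline D segments behind the shared junctions lie on chromosome 12 of GRCm38, on the minus strand, and are printed with the bases that also begin Ighj1 in capitals:
Ighd2-5 (chr12:113466027-113466043): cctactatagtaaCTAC
Ighd2-8 (chr12:113450851-113450867): tctactatggtaaCTAC
Ighd1-1 (chr12:113482170-113482192): tttattactacggtagtagCTAC
Ighd2-3 (chr12:113475400-113475416): tctatgatggttaCTAC
Ighj1 (chr12:113429781-113429833): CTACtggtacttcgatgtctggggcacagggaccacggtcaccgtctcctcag

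All 4 D segments end in the same 4 bases with which Ighj1 starts, and in the shared IGHV11-2 junctions those bases were annotated as J. Ighd2-5 and Ighd2-6 (chr12:113461369-113461385) have the same germline sequence, so a junction named IGHD2-5 could come from either. The D stretch of the junction named IGHD6-2 occurs in no GRCm38 D segment, so its D name and its lack of N nucleotides rest on the deposited annotation alone. The D stretch of the junction named IGHD2-1 occurs in Ighd2-8, and IGHD2-1 is not an annotated GRCm38 segment under that name. Of the 539 N-less clonotypes, 366 (67.9%) had a D stretch that occurs exactly in a GRCm38 D segment, against 73.9% of the N-containing clonotypes. The share was 86.7% for IGHV11-2 (72 of 83), 62.5% for IGHV12-3 (60 of 96) and 65.0% for the other V segments (234 of 360).

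The libraries held 244 to 2134 sequences and 936 to 18956 reads. Extravascular libraries were deeper than intravascular ones in PBS mice (1343 ± 522 against 482 ± 103 sequences, mean ± SD, n = 6) and, on average, in UPEC mice (726 ± 313 against 520 ± 252, n = 5). A sequence is 1 distinct read consensus with at least 2 reads, and sequences of 1 clonotype differ outside the junction, by differences whose source was not tested. Shares by sequence therefore weigh large clonotypes heavily. Shares by clonotype do so less, but 1 nt junction variants of a large clonotype count there as clonotypes of their own. Cell numbers cannot be told apart from the amount of RNA per cell in either measure. The V segments were amplified with a mix of V primers, whose part in the V shares was not tested.

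The first comparison asked whether the N-less share differed between the compartments of the same mice. In PBS mice 1 to 6, N-less junctions made up 62.0%, 22.3%, 10.9%, 37.4%, 24.5% and 8.22% of extravascular sequences. The intravascular shares of the same mice were 9.67%, 5.41%, 11.4%, 9.93%, 6.59% and 2.64%. The extravascular share was the higher one in 5 of 6 mice, with mouse 3 the exception and mouse 1 the highest. The group means were 27.5% ± 19.8 and 7.60% ± 3.30 (SD, n = 6), and the mean gap within mice was 19.9 ± 18.7 points (p = 0.0625 in an exact Wilcoxon matched-pairs test, two-sided; adjusted p = 0.5, Benjamini-Hochberg, over 20 comparisons of shares). The smallest p that 6 pairs allow is 0.03125. With only N-less junctions whose D stretch occurs in a GRCm38 D segment the gap was 13.2 points (exact p = 0.0625).

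In UPEC mice 1 to 5 the extravascular shares were 11.4%, 34.2%, 39.1%, 8.37% and 16.8%, and the intravascular ones 8.38%, 7.46%, 7.26%, 13.4% and 4.46%. Mouse 4 had the lower extravascular share and the other 4 mice the higher. The means were 21.99% ± 13.8 and 8.20% ± 3.27 (SD, n = 5), and the difference of 13.8 ± 15.5 points did not pass the exact signed-rank test (p = 0.1875; adjusted 0.536), for which 5 pairs allow no p below 0.0625. In both treatments the ranges of the 2 compartments overlapped.

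**Figure D1:**
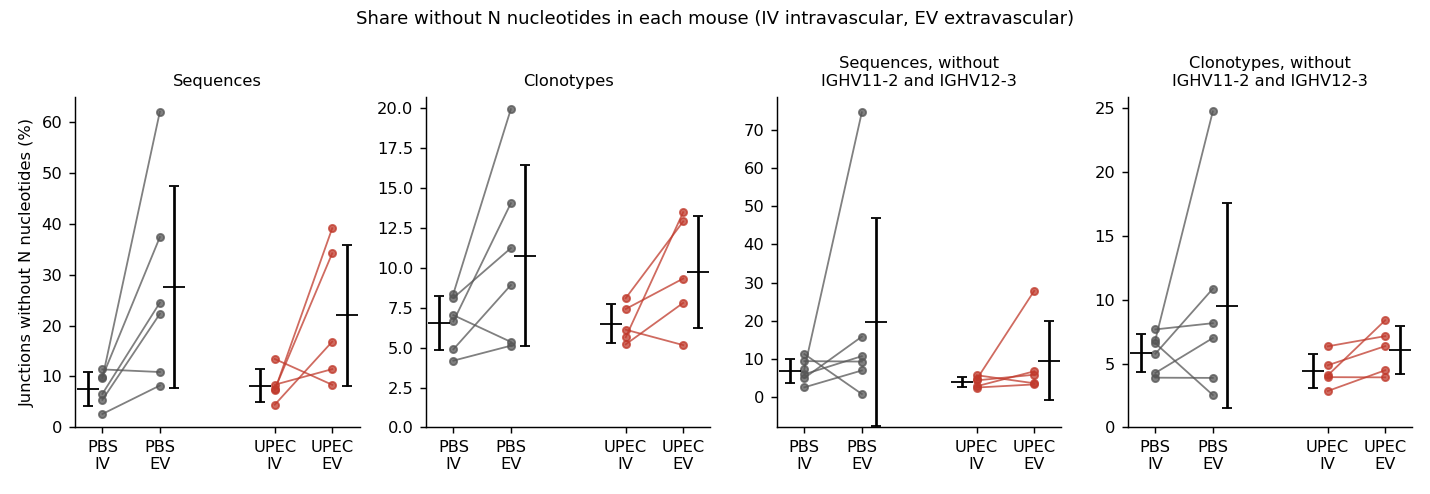
Percentage of sequences or clonotypes with a D segment that had no N nucleotide, for all V segments (left pair) and without IGHV11-2 and IGHV12-3 (right pair). Points are mice, lines join the compartments of 1 mouse, and black marks give the group mean ± SD; the extravascular points spread far more widely (8.22% to 62.0% of sequences in PBS mice) than the intravascular ones (2.64% to 11.4%).

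Counting every clonotype as 1 narrowed the gap. N-less clonotypes were 19.9%, 8.92%, 5.36%, 11.2%, 14.0% and 5.12% of the extravascular clonotypes of PBS mice 1 to 6, against 8.38%, 4.89%, 7.03%, 8.12%, 6.64% and 4.18% of the intravascular ones. The mean difference was 4.23 ± 4.71 points (10.8% ± 5.65 against 6.54% ± 1.70; higher in 5 of 6 mice; exact signed-rank p = 0.0938, adjusted 0.5), and 2.76 points without mouse 1 (exact p = 0.1875). For UPEC mice the extravascular shares of clonotypes were 9.33%, 12.9%, 13.5%, 5.16% and 7.80% and the intravascular shares 7.42%, 8.10%, 5.65%, 6.12% and 5.20%, a difference of 3.24 ± 3.29 points (higher in 4 of 5 mice; exact p = 0.125, adjusted 0.5). Without UPEC mouse 3 it was 2.09 points. With 1 nt variants merged, the extravascular and intravascular means were 11.5% ± 8.46 and 6.46% ± 1.43 in PBS mice. In UPEC mice they were then 9.14% ± 3.15 and 6.43% ± 1.27.

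Removing IGHV11-2 and IGHV12-3 left a difference that rested on few libraries. The extravascular N-less shares of sequences were then 74.7%, 15.8%, 0.765%, 9.27%, 10.7% and 6.93% in PBS mice 1 to 6. In UPEC mice 1 to 5 they were 5.83%, 3.58%, 27.8%, 3.28% and 6.72%. PBS mouse 1 and UPEC mouse 3 stood apart from their groups. The differences from the intravascular libraries were 12.8 ± 27.6 points in PBS mice (exact signed-rank p = 0.3125, adjusted 0.598) and 5.46 ± 10.1 points in UPEC mice (p = 0.3125, exact; adjusted 0.598). Without PBS mouse 1 the first was 1.88 points, and without UPEC mouse 3 the second was 1.03 points. By clonotype the differences were 3.68 ± 7.59 points in PBS mice (0.848 without mouse 1; exact p = 0.3125 with all 6) and 1.64 ± 1.63 points in UPEC mice (0.976 without mouse 3; exact p = 0.125 with all 5).

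The second comparison set UPEC against PBS mice within a compartment. Extravascular N-less shares of sequences differed by -5.55 points (21.99% against 27.5%; exact two-sided Mann-Whitney p = 0.931) and of clonotypes by -1.03 points (p = 0.931, exact). Without PBS mouse 1 both turned positive (1.34 and 0.800 points), as they did with only exact GRCm38 D stretches (2.11 and 0.215 points). Intravascular shares differed by 0.595 points for sequences and by -0.0417 points for clonotypes (exact p = 0.931 for both). The smallest p among these was for intravascular sequences of the other V segments, 3.98% ± 1.34 in UPEC mice (n = 5) against 6.89% ± 3.13 in PBS mice (n = 6; exact Mann-Whitney p = 0.0823, adjusted 0.5). The change of the compartment difference between treatments gave exact permutation p-values of 0.580 to 0.762 over the 4 measures. None of the 20 comparisons of shares passed the adjusted threshold of 0.05.

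Much of the extravascular N-less sequence pool belonged to few large clonotypes, and so did much of the N-containing pool: clonotypes of at least 20 sequences held 83.8% and 52.1% of the extravascular sequences. The largest N-less clonotype held 32.7% to 69.9% of the N-less sequences of an extravascular PBS library and 18.5% to 86.0% of an extravascular UPEC library. In intravascular libraries it held 10.9% to 34.5% (PBS) and 8.00% to 33.1% (UPEC). Leaving out that clonotype in every library, the mean N-less shares were 17.6% ± 17.7 (extravascular PBS), 6.03% ± 2.50 (intravascular PBS), 12.4% ± 10.4 (extravascular UPEC) and 6.58% ± 1.96 (intravascular UPEC). All 10 N-less clonotypes with at least 100 sequences in a library were extravascular. They are 9 distinct clonotypes, since 1 IGHV12-3 junction was large in 2 mice, and 3 of them (486 sequences) had a D stretch that occurs in no GRCm38 segment. They came from 6 mice and held 2090 sequences, 55.4% of those in N-less clonotypes, and 6 of them used IGHV12-3.

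The other 4 large clonotypes used segments of the IGHV3 family. Besides the IGHV3-3 junction printed above, PBS mouse 1 held an IGHV3-1, IGHD1-1 and IGHJ4 clonotype of 374 extravascular sequences, PBS mouse 2 an IGHV3-8 clonotype of 153 and UPEC mouse 3 an IGHV3-8 clonotype of 138; these 3 were named after their values were seen. The IGHV3-3 and IGHV3-1 clonotypes made up 20.2% and 17.5% of the extravascular library of PBS mouse 1.

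**Figure D2:**
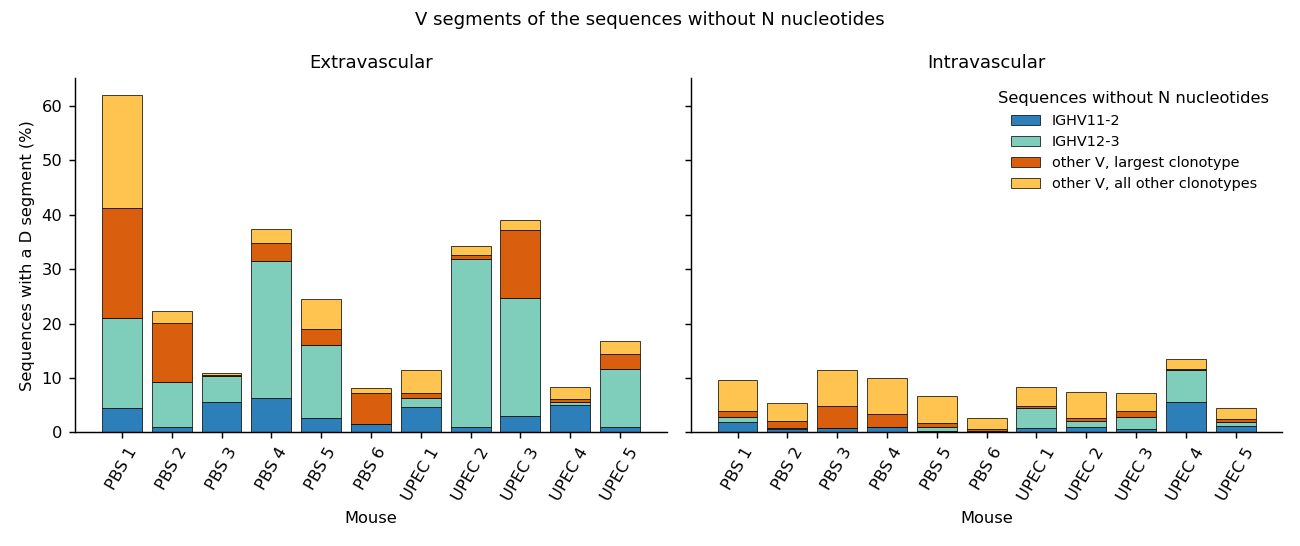
N-less sequences as a percentage of all sequences with a D segment in each library, stacked by V segment, with the largest N-less clonotype of another V segment shown apart. IGHV12-3 made the largest part of the bar in UPEC mouse 2 (30.9%) and PBS mouse 4 (25.2%), and 1 IGHV3-3 clonotype alone made 20.3% in PBS mouse 1; the intravascular bars reach 13.4% at most.

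By V segment, IGHV11-2 had the highest N-less share of the 14 segments followed. Of its 144 clonotypes 83 were N-less (57.6%, Wilson 95% interval 49.5% to 65.4%), in all 11 mice. IGHV12-3 had 96 of 544 (17.6%, 14.7% to 21.1%), also in all 11 mice. All other V segments together had 360 of 5887 (6.12%, 5.53% to 6.76%). These intervals cover counting error only, since clonotypes of 1 mouse are not independent samples of the condition and a junction counts in each library that holds it. Counted once each, 23 of 68 distinct IGHV11-2 clonotypes (33.8%), 80 of 496 with IGHV12-3 (16.1%) and 350 of 5849 with other V segments (5.98%) were N-less. The order held in both compartments, with 54.5%, 16.7% and 7.24% extravascular and 65.1%, 20.3% and 5.23% intravascular.

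The N-less share within IGHV12-3 varied between mice, and its treatment groups were compared by description only. Of the extravascular IGHV12-3 clonotypes of PBS mice 1 to 6, 11.4%, 12.9%, 14.8%, 18.2%, 18.8% and 0% were N-less, the last of only 2 clonotypes. In UPEC mice 1 to 5 the shares were 18.8%, 33.3%, 19.0%, 16.7% and 22.7%, so the ranges overlapped. The means were 12.7% ± 6.84 (n = 6) and 22.1% ± 6.65 (n = 5). By sequence the extravascular N-less shares within IGHV12-3 were 41.9%, 50.2%, 18.2%, 84.5%, 71.2% and 0% in PBS mice and 21.1%, 85.8%, 48.4%, 7.84% and 52.6% in UPEC mice, so neither treatment stood higher on that extravascular measure. Intravascularly the N-less shares of IGHV12-3 clonotypes were 10.7% ± 10.1 (PBS, n = 6) and 29.0% ± 12.7 (UPEC, n = 5), with overlapping ranges. IGHV11-2 and IGHV12-3 together made up 8.00% to 21.9% of intravascular N-less clonotypes in PBS mice and 26.1% to 50.0% in UPEC mice. These intravascular differences were not tested.

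Among the other segments, IGHV3-3 had 26 N-less clonotypes of 127 (20.5%), but 20 of them were extravascular and only 5 of 11 mice had any, so its mean over mice was 11.1% ± 15.2. IGHV1-15 (10.1%), IGHV10-1 (8.93%), IGHV5-17 (8.75%), IGHV5-6 (8.33%), IGHV5-4 (7.26%), IGHV3-1 (7.17%), IGHV1-53 (7.14%), IGHV3-6 (6.27%) and IGHV15-2 (5.67%) had overlapping intervals. IGHV3-8 (4.75%, 3.57% to 6.29%) and IGHV1S22 (3.02%, 1.78% to 5.10%) were lowest. IGHV3-1, IGHV3-6 and IGHV3-8 nevertheless supplied 154 N-less clonotypes because they were frequent in all libraries. For IGHV3-1 the groups differed. Extravascularly 24 of 214 clonotypes (11.2%) were N-less in PBS mice, in 4 of 6 mice, and 0 of 98 in UPEC mice. Intravascularly 8.16% and 5.19% were, and these differences were not tested.

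**Figure D3:**
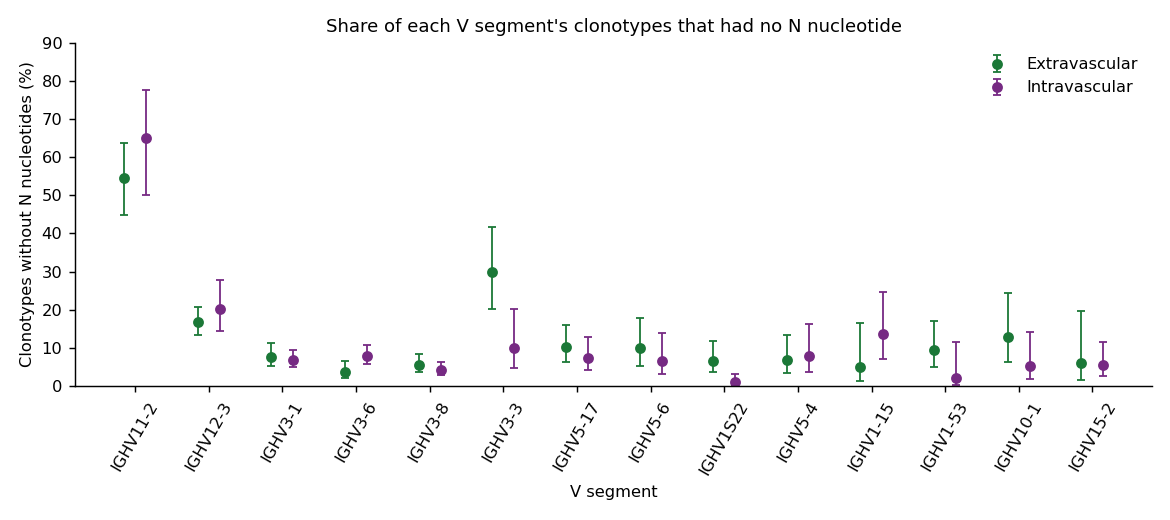
Percentage of the clonotypes of each V segment that had no N nucleotide, over all libraries of a compartment, with Wilson 95% intervals (counting error only). IGHV11-2 (54.5% extravascular, 65.1% intravascular) lies above every other segment; the IGHV3-3 values (29.9% and 10.0%) pool mice of which few had an N-less clonotype, and their means over mice are 17.3% and 12.8%.

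The IGHV11-2 and IGHV12-3 segments also differed in where N nucleotides were missing. Of IGHV11-2 clonotypes 81.2% had none at the V to D join and 70.1% none at the D to J join, and only 6.25% had N nucleotides at both. For IGHV12-3 the shares were 39.3%, 46.3% and 31.8%, and for the other V segments 19.5%, 27.0% and 59.5%. Over all clonotypes 22.5% lacked N at the V to D join and 29.6% at the D to J join. By clonotype, junctions just outside the rule were about as frequent as those inside it. With 1 N nucleotide there were 282 extravascular clonotypes (9.09%, against 9.83% with 0) and 213 intravascular ones (6.13%, against 6.54%). By sequence, as means over mice, 0 and 1 N nucleotide made up 27.5% ± 19.8 and 15.6% ± 13.1 in extravascular PBS libraries and 21.99% ± 13.8 and 6.45% ± 2.81 in extravascular UPEC libraries. The intravascular means were 7.60% and 5.88% (PBS) and 8.20% and 7.10% (UPEC).

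D segment use of N-less clonotypes was led by IGHD1-1 (155 clonotypes, 28.8% of N-less against 33.9% of N-containing), the longest of the common D segments. IGHD2-3 supplied 75, IGHD2-5 56, IGHD4-1 55, IGHD2-1 49 and IGHD3-1 20. The N-less share of clonotypes ran from 7.05% for IGHD1-1 to 13.4% for IGHD2-1, 13.3% for IGHD3-1 and 13.1% for IGHD2-5, with 9.35% for IGHD2-3 and 9.63% for IGHD4-1. By family the shares were 7.06% (IGHD1), 8.46% (IGHD2), 9.25% (IGHD3), 9.63% (IGHD4), 10.2% (IGHD5, 5 of 49 clonotypes) and 12.3% (IGHD6, 14 of 114). All IGHV11-2 N-less clonotypes used an IGHD1 (28) or IGHD2 (55) segment.

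J use depended on the V segment. Of the N-less IGHV11-2 clonotypes 82 of 83 used IGHJ1, the J segment nearest to the D segments, and of those with IGHV12-3, 72 of 96 did. Among the other V segments 64 of 360 N-less clonotypes (17.8%) used IGHJ1 and 140 (38.9%) IGHJ2. Within libraries the IGHJ1 share of extravascular N-less clonotypes was 25.0% to 68.2% (median 45.2%, 11 mice) and of N-containing clonotypes 16.2% to 45.1% (median 24.2%). The difference was 20.2 ± 17.1 points (higher in 9 of 11 mice; exact signed-rank p = 0.00977, adjusted 0.0365 over 8 within-library comparisons). Intravascular N-less clonotypes showed 11.9 ± 14.8 points (8 of 11 mice; exact p = 0.0244, adjusted 0.0488), but -0.191 points when only D stretches of at least 8 nt were used (exact p = 0.765). Without IGHV11-2 and IGHV12-3 the differences were -0.128 points extravascular (p = 0.831, exact) and -3.37 points intravascular (p = 0.206, exact). Over all V segments the same IGHV11-2 and IGHJ1 junctions count in many mice. The differences of the 11 mice therefore share members, while the signed-rank test takes them as independent. Ighj1 also begins with the bases that end the D segments printed above, and the part of this was not tested.

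Shared germline bases at the joins were frequent in N-less junctions. For clonotypes with an exact GRCm38 D stretch, a join was scored when at least 2 bases at the V end or the J start also continued the germline D segment. In extravascular libraries 39.7% to 90.9% of N-less clonotypes had such a join (median 60.7%), against 8.80% to 39.6% of N-containing ones (median 17.7%). The intravascular means were 53.9% ± 11.5 of N-less and 15.9% ± 2.42 of N-containing clonotypes, and the ranges did not overlap. Without IGHV11-2 and IGHV12-3 the mean differences were 36.8 points extravascular and 22.3 points intravascular. The same annotation sets the N regions and the segment ends, so the direction is partly fixed by the rule and the shares are given without a test.

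The shared bases lay mostly at the D to J join, where 57.9% of N-less and 13.6% of N-containing clonotypes had at least 2; at the V to D join the shares were 23.6% and 4.00%. All 72 IGHV11-2 clonotypes scored had such a join, as did 60.0% of IGHV12-3 and 52.5% of other N-less clonotypes. By J segment the D to J share was 78.1% for IGHJ1, 60.7% for IGHJ2, 44.6% for IGHJ4 and 9.26% for IGHJ3. P nucleotides, the palindromic bases left by hairpin opening, were annotated in 23.0% of N-less and 40.8% of N-containing clonotypes.

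CDR3 lengths were shorter without N nucleotides, which the rule partly fixes, so the lengths are given without a test. The median was 33 nt (quartiles 27 and 36) in 539 N-less and 36 nt (33 and 42) in 6036 N-containing clonotypes. All 96 N-less IGHV12-3 clonotypes had a CDR3 of exactly 36 nt, as did 85.0% of the N-containing IGHV12-3 clonotypes. N-less IGHV11-2 CDR3s measured 30 to 36 nt (58 of 83 at 33 nt). Other V segments had a median of 30 nt N-less and 36 nt N-containing. By group the N-less medians were 33 nt in PBS extravascular, PBS intravascular and UPEC intravascular libraries and 36 nt in UPEC extravascular libraries.

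**Figure D4:**
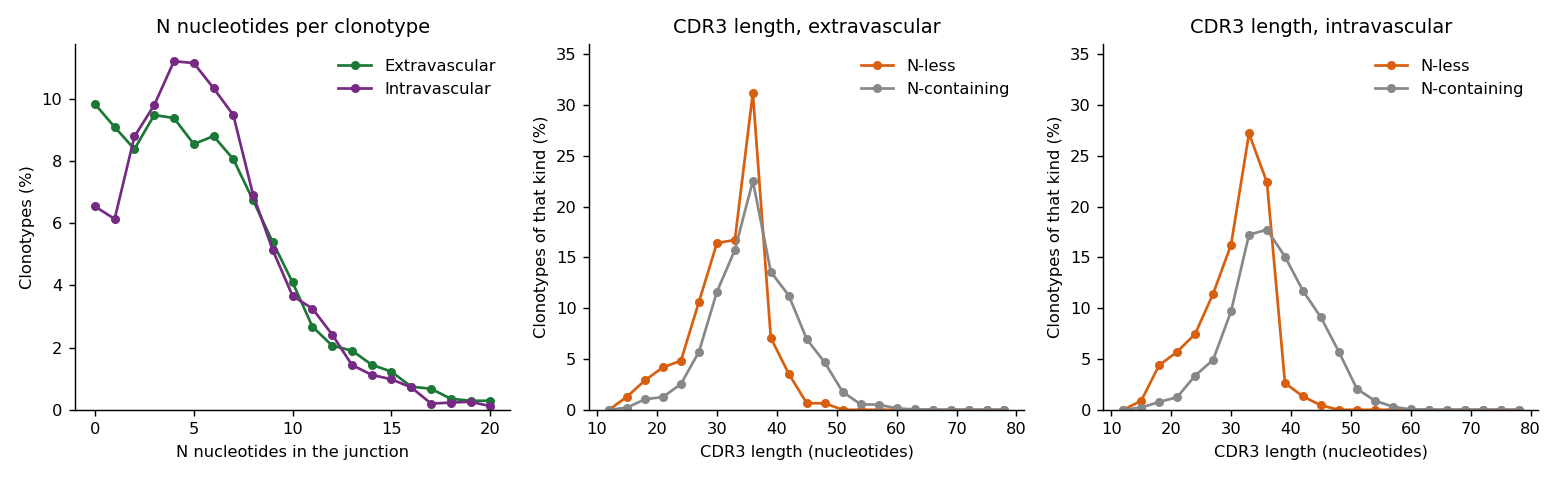
Left, percentage of clonotypes by number of N nucleotides in each compartment; middle and right, CDR3 length in nucleotides of N-less and N-containing clonotypes. The extravascular curve starts higher (9.83% with 0 N nucleotides against 6.54%), and N-less CDR3s peak at 36 nt extravascular and 33 nt intravascular and are rare above 39 nt.

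Identical N-less clonotypes recurred between mice. Of 453 distinct N-less clonotypes 21 were found in at least 2 mice (4.64%), against 26 of 5960 N-containing ones (0.436%). Several of the 21, with 2 or 3 sequences each, differ by 1 base from a larger junction also found in several mice. How many of the 26 do so was not counted. IGHV11-2 or IGHV12-3 accounted for 17 of the 21 N-less and 22 of the 26 N-containing ones. Per library, 12.1% to 33.3% of extravascular N-less clonotypes (median 21.2%) and 0% to 5.93% of N-containing ones (median 1.14%) were also found in another mouse, a mean difference of 18.3 ± 7.23 points. The intravascular mean difference was 17.1 ± 5.29 points, and N-less clonotypes had the higher share in 11 of 11 mice in both compartments. A junction found in several mice counts in each of them, so these values share members by construction and are given without a test. Without IGHV11-2 and IGHV12-3 the differences were 3.43 points extravascular and 2.40 points intravascular.

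The IGHV11-2, IGHD2-5 and IGHJ1 junction was present in 21 of 22 libraries. It had 43, 1, 60, 9, 4 and 5 extravascular sequences in PBS mice 1 to 6 and 3, 2, 13, 34 and 1 in UPEC mice 1 to 5. Its intravascular numbers were 6, 1, 1, 2, 1 and 0 in PBS mice and 1, 1, 1, 9 and 1 in UPEC mice. The junction named IGHD2-1 differs from it by 1 base in the D stretch and was in 18 libraries. It had 38, 5, 24, 35, 0 and 2 extravascular sequences in PBS mice and 5, 3, 4, 1 and 1 in UPEC mice. Its intravascular numbers were 1, 1, 3, 2, 0 and 0 in PBS mice and 0, 1, 2, 41 and 1 in UPEC mice. Both junctions were therefore carried by PBS and UPEC mice and varied widely in number between mice. The IGHV11-2, IGHD1-1 and IGHJ1 junction found in 5 mice also differs from the IGHD2-5 one by 1 base. It had 1 sequence in each of 6 libraries, all of which also held the IGHD2-5 one.

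The IGHV12-3 junctions were less evenly spread. The one found in 6 mice had 50 extravascular sequences in UPEC mouse 5, 11 intravascular ones in UPEC mouse 4, and 1 or 3 intravascular sequences in each of 4 PBS mice. The one found in 3 mice had 215 extravascular sequences in PBS mouse 1, 133 in UPEC mouse 3 and 2 in UPEC mouse 1. Its intravascular sequences numbered 7 in UPEC mouse 1 and 1 in UPEC mouse 3. The IGHV5-6, IGHD1-1 and IGHJ2 junction, the only one of another V segment in at least 3 mice, had 1 sequence in each of 5 libraries. Of the 10 N-less clonotypes with at least 100 sequences in a library, 3 were found in more than 1 mouse and 7 were not. The 3 count the IGHV12-3 junction of PBS mouse 1 and UPEC mouse 3 once for each mouse. Carry-over of reads between libraries was not tested.

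Within a mouse, 33 N-less clonotypes were present in both compartments, 10.6% of the 311 extravascular and 14.5% of the 228 intravascular N-less clonotypes. For N-containing clonotypes the number was 39, or 1.40% of 2792 and 1.20% of 3244, and 24 of these came from UPEC mouse 4. Without that mouse 27 N-less (9.22% of extravascular) and 15 N-containing clonotypes (0.610%) were in both. Of the 33, 29 used IGHV11-2 or IGHV12-3, mostly the junctions found in many mice. With the other V segments 4 N-less clonotypes (2.13% of 188 extravascular and 2.33% of 172 intravascular) and 23 N-containing ones (0.955% of 2408 and 0.737% of 3119) were in both, differences that were not tested. Of these 4, an IGHV3-3 clonotype with 1 sequence in each compartment of PBS mouse 1 differs by 1 base from a much larger one of that mouse, also among the 4. The most frequent N-less ones were the IGHV3-3 clonotype of PBS mouse 1 (431 extravascular and 4 intravascular sequences) and the IGHV12-3, IGHD2-3 and IGHJ1 junction of UPEC mouse 3 (133 and 1).

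N-less clonotypes more often had several sequences. In extravascular libraries 24.2% to 50.0% of N-less clonotypes had at least 2 sequences (median 29.2%), against 9.39% to 23.5% of N-containing ones (median 14.9%). The difference was 16.1 ± 5.51 points in 11 of 11 mice (exact signed-rank p = 0.000977, adjusted 0.00781), and 6.64 points without IGHV11-2 and IGHV12-3 (exact p = 0.175). In intravascular libraries it was 9.53 ± 13.1 points and higher in 6 of 11 mice (exact p = 0.123, adjusted 0.197). At least 20 sequences were reached by 27 of 311 extravascular N-less clonotypes (8.68%) and 73 of 2792 N-containing ones (2.61%). The intravascular numbers were 2 of 228 and 9 of 3244.

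Isotype read numbers came from 9 fields in each sequence name, of which 1 name (Igha) was readable and 8 were taken to follow in alphabetical order. On that reading 99.3% of the 29948 reads of extravascular N-less clonotypes and 95.8% of the 3327 intravascular ones were Ighm. For N-containing clonotypes the shares were 88.7% and 91.5%. The 10 N-less clonotypes with at least 100 sequences had 20414 reads, all Ighm. Ighd reads were found for 26 of 311 extravascular N-less clonotypes (8.36%) and 37 of 228 intravascular ones (16.2%), and among the extravascular clonotypes with IGHV11-2 or IGHV12-3 for 5 of 123 N-less (4.07%) and 5 of 384 N-containing ones (1.30%).

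Per extravascular library the share with Ighd reads was 1.59% to 33.3% of N-less clonotypes (median 6.06%) and 1.98% to 37.1% of N-containing ones (median 18.5%). It was 6.88 ± 7.86 points lower in N-less clonotypes, and lower in 10 of 11 mice (exact signed-rank p = 0.0137, adjusted 0.0365). UPEC mouse 4 was the exception. Without IGHV11-2 and IGHV12-3 the difference was -5.93 points (exact p = 0.0537). In intravascular libraries it was -3.76 points over all V segments (exact p = 0.365) and 0.969 points without those 2. Igha reads occurred in 8 N-less clonotypes of 5 mice (44 reads in all), 1 of them with IGHV11-2. Igha took 0.0935% of extravascular N-less reads against 5.57% of N-containing reads, and intravascularly 0.481% against 0.286%. By clonotype, Igha reads were found for 3 of 311 N-less and 45 of 2792 N-containing clonotypes extravascularly (0.965% and 1.61%), and for 5 of 228 and 15 of 3244 intravascularly (2.19% and 0.462%).

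**Figure D5:**
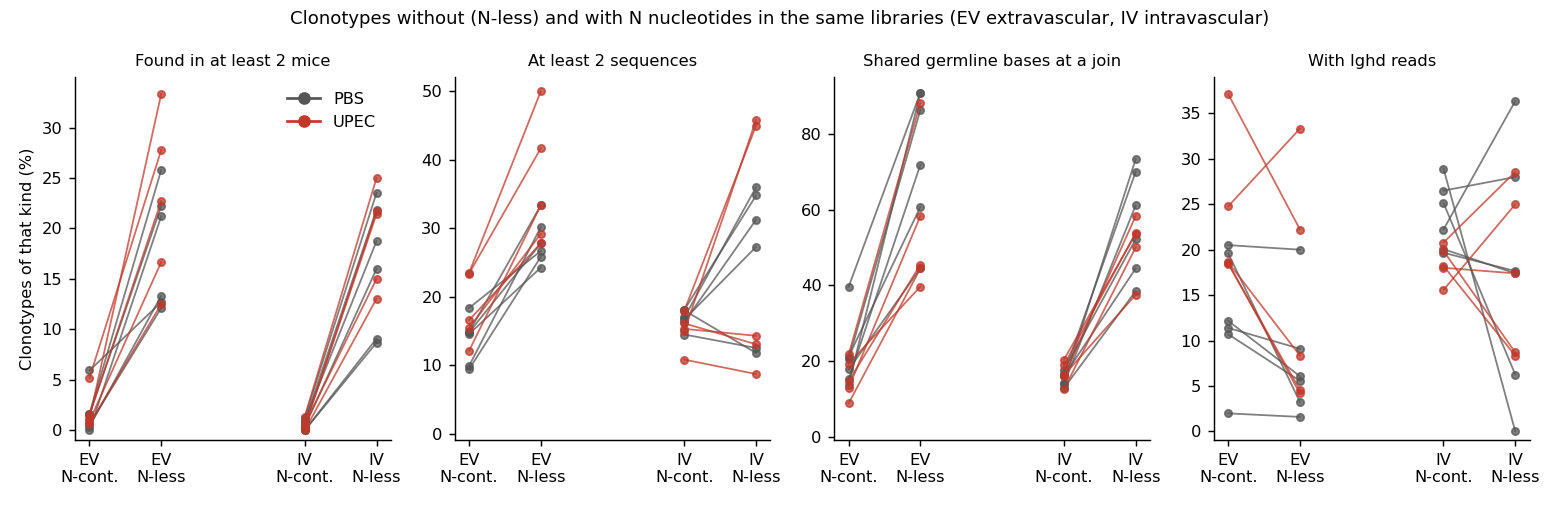
Percentage of clonotypes in each library that were found in at least 2 mice, had at least 2 sequences, had at least 2 shared germline bases at a join, or had Ighd reads, for N-containing and N-less clonotypes; lines join the values of 1 library (grey PBS, red UPEC). Every line rises in the panels of sharing and of shared germline bases, in both compartments, and in the extravascular libraries of the panel of sequence number.

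V segments of N-less clonotypes were close to germline. The mean mismatch to the GRCm38 V segment was 0.105% ± 0.0452 of V bases in extravascular N-less clonotypes and 0.112% ± 0.0536 in N-containing ones (11 mice; exact signed-rank p = 0.831). The intravascular values were 0.0647% ± 0.0425 and 0.0668% ± 0.0439 (exact p = 0.638). Neither difference exceeded the spread between mice. These means count each clonotype once. N-less clonotypes of at least 20 sequences in a library had mean mismatches of 0.263% to 0.458%, and N-containing ones of that size were not compared.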

How the data were processed

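RNA of sorted kidney B cells was reverse transcribed with barcoded reverse primers, amplified with V primers and sequenced in paired 300-base MiSeq reads. The authors merged the reads, built consensus sequences by barcode, removed those with 1 read, and annotated them with IMGT/V-QUEST; the deposited tables give 1 row for each sequence with segment names, region sequences and nucleotide positions (other values, not normalized). Genome coordinates and germline segments are from GENCODE vM21 (GRCm38).

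From these tables N length was read from the N1 and N2 regions; the first listed V, D and J names were used. A clonotype was N-less when at least 50% of its sequences in a library were. V mismatches were counted over at least 100 aligned bases. The compartments were compared with an exact signed-rank test paired by the mouse named in the labels, as in the study's methods, and treatments with an exact Mann-Whitney test; the change between treatments used an exact permutation test of mean differences. p-values were adjusted (Benjamini-Hochberg) within 20 comparisons of shares and 8 within-library comparisons; 4 further ones, on shared germline bases and on sharing between mice, are given only as descriptions. Named V segments were IGHV11-2, IGHV12-3 and the 12 others with most N-less clonotypes. Named D segments were the 6 with most, and named clonotypes those in at least 3 mice, the largest of each group and the most frequent in both compartments. Members and lists were chosen with earlier results of these data known. The labels name the mouse of each library. Alternatives, some added after seeing the data, are given in the closing section. Tests were checked on simulated data (Python 3.11.15, scipy 1.17.1). No depth correction was made, and intervals cover counting error only.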

Additional observations from a re-analysis of the deposited data

Results flagged for a closer look

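Of 40 groups of mice examined, 5 had a mouse standing apart from the others (Dixon's 95% criterion, which chance meets in about 1 of 20 groups). Without IGHV11-2 and IGHV12-3, extravascular PBS mouse 1 had 74.7% N-less sequences and 24.7% N-less clonotypes, and extravascular UPEC mouse 3 had 27.8% N-less sequences. The difference in clonotypes with Ighd reads, N-less minus N-containing, was -16.4 points in extravascular PBS mouse 4 and 8.56 points in extravascular UPEC mouse 4. The causes were not tested.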

How the results depend on the processing

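Alternatives using an exact GRCm38 D stretch or merging 1 nt variants were chosen after seeing the data. Of 220 recomputed values under alternatives other than leaving out a mouse, 188 kept direction and side of the threshold. The PBS compartment difference in sequences passed unadjusted p < 0.05 with no P nucleotide allowed either (19.9 points, exact p = 0.03125), with at most 2 N nucleotides (27.0, exact p = 0.03125), and with no replicate block, that is without the paired mice (19.9, exact p = 0.0260). With at most 2 N nucleotides the PBS differences in clonotypes also passed (8.11, and 7.09 without IGHV11-2 and IGHV12-3). Between treatments, the exact D stretch gave 2.11 (sequences) and 0.215 (clonotypes) extravascular, and 0.9504 and 0.282 for the change of the compartment difference. D stretches of at least 8 nt gave -2.56 for intravascular sequences and 0.00752 for the change in clonotypes, and at most 2 N nucleotides 2.01 for intravascular clonotypes. Without IGHV11-2 and IGHV12-3 the intravascular clonotype difference was -2.32 with at least 3 reads (exact p = 0.0303), 0.428 with at most 2 N nucleotides and -1.11 with the exact D stretch (exact p = 0.0303).

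Against N-containing clonotypes, leaving out IGHV11-2 and IGHV12-3 gave differences of 3.43 (extravascular) and 2.40 (intravascular) for sharing, 6.64 and 7.47 for several sequences, -0.128 and -3.37 for IGHJ1, and -5.93 and 0.969 for Ighd reads. Intravascular several-sequence differences were 8.43 with at least 3 reads and 10.6 against at least 3 N nucleotides, and intravascular IGHJ1 was -0.191 with D stretches of at least 8 nt. V mismatch differences turned positive with D stretches of at least 8 nt (0.00556 extravascular, 0.0129 intravascular), against at least 3 N nucleotides (0.0149, 0.00796) and with the exact D stretch (0.0170, 0.00139). The causes of these changes were not tested.

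Leaving out each mouse in turn, extravascular UPEC minus PBS ran from -9.83 to 1.34 (sequences), -2.16 to 0.800 (clonotypes) and -14.8 to 0.751 (sequences without IGHV11-2 and IGHV12-3). Intravascular values ran from -0.714 to 1.53, -0.513 to 0.326 and -3.79 to -2.05, the last with exact p = 0.0159 without PBS mouse 6. The change of the compartment difference ran from -10.7 to 0.331 and -2.17 to 0.475, and without IGHV11-2 and IGHV12-3 from -12.0 to 3.58 and -3.59 to 0.795. V mismatch differences ran from -0.0200 to 0.00546 extravascular and -0.0157 to 0.0102 intravascular. Libraries of 244 to 2134 sequences limit the precision of each share.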
